A study of Mus musculus with 4 samples.

Results

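The cytosolic ribosomal protein genes encode the proteins of the small and the large subunit of the ribosome that translates nuclear mRNAs. They were taken as all array probes, other than control probes, that carry a gene name of the form Rps or Rpl plus a number, with or without a closing a, x, y or l, together with Rplp0, Rplp1, Rplp2 and Rpsa. The rule gave 80 genes with 186 probes, of 34821 gene names and 55681 probes in all. It used names only and no measured value. Rps3a is named Rps3a1 in RefSeq, and Fau, which encodes a ribosomal protein fused to a ubiquitin-like protein, falls outside the rule by name and is given beside it.

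The study activated the kinase AKT during the reprogramming of mouse embryonic fibroblasts (MEFs) towards induced pluripotent stem cells. The MEFs came from male E13.5 embryos of mice that carry an Oct4-EGFP transgene, and every culture was transduced by retrovirus with Oct4, Sox2 and Klf4 (OSK). OSKA cells also received AKT-MER, a myristoylated AKT fused to a modified estrogen receptor that 4-hydroxytamoxifen (4OHT) activates. 4OHT or a mock treatment was given from 3 days after infection, and cells were sampled at 8 days. OSK and OSKA cells, each without (− 4OHT) or with 4OHT (+ 4OHT), made up 4 groups, and each group was measured on 1 single-colour array. Infected cultures are mixtures of cells, and the share of cells that carried each vector was not analysed here.

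With 1 array per group there was no replicate, so no difference could be tested, no p-value is given, and all comparisons describe these 4 cultures. A level is the log2 intensity of a gene relative to the 75th percentile of its array, averaged over those probes of the gene that were well above background on all 4 arrays. A difference is 1 level minus another. Levels of different genes come from different probes and are not compared with each other. Beside some differences of single genes stands the software error, the error of the intensities according to the scanner software, which covers measurement on the array and not variation between cultures. Over members it ran from 0.08 to 0.21, and a difference printed without it can lie within it. All arrays lay on 1 slide, and the position on it cannot be told apart from the group.

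Ribosomal protein mRNAs of vertebrates mostly start with a cytosine and a run of pyrimidines, the 5′ terminal oligopyrimidine (TOP) motif. The TOP motif lets the kinase complex mTORC1, which lies downstream of AKT, adjust their translation and stability together, partly through the RNA-binding protein LARP1. Since a ribosome holds a single copy of nearly every ribosomal protein, cells usually make these mRNAs in concert, and they rank among the most abundant mRNAs of a growing fibroblast.

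The windows around the RefSeq start sites of 10 members are printed to show where pyrimidine runs lie near the start of genes on which the results turn. Each has 30 bases, 15 before and 15 from the annotated start, on the gene's strand in GRCm38.p6, and the longest run of pyrimidines anywhere in the window is in capitals. In Rpl31, Rplp0, Rps27l and Rpl39l that run ends before the annotated start, so it is not at the place of a TOP motif.
Rpl7a (chr2:26910792-26910821, + strand): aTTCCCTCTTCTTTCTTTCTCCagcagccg
Rpl35 (chr2:39005117-39005146, − strand): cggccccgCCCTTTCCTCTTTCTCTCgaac
Rpl18 (chr7:45718056-45718085, + strand): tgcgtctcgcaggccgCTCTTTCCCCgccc
Rps6 (chr4:86857353-86857382, − strand): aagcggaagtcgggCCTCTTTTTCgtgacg
Rplp2 (chr7:141447636-141447665, + strand): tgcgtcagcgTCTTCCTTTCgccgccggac
Rpl31 (chr1:39367836-39367865, + strand): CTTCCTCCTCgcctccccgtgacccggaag
Rps21 (chr2:180257364-180257393, + strand): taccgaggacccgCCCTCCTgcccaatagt
Rplp0 (chr5:115559452-115559481, + strand): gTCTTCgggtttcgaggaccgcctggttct
Rps27l (chr9:66946071-66946100, + strand): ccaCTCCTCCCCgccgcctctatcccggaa
Rpl39l (chr16:10170213-10170242, + strand): ctcccaggCCTTTCCggatttccggtggtc

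The table of promoters matched 58 of the 78 members that were measured. Their longest pyrimidine run in this window had a median of 7 bases, against 4 bases over all 27025 genes of the table. A run of at least 8 pyrimidines was found in 24 members (41.4%) and in 11.9% of all genes. In the 300 bases of each promoter, CTTTCC on the gene's strand was found in 37.9% of members and 14.0% of all genes. The letters CTCTTT on that strand, which can overlap CTTTCC, were found in 36.2% of members and in 3236 of the 27025 genes. CCGGAA, the core that ETS-family factors are known to bind, was found on either strand in 51.7% of members and 15.2% of all genes. These matches are descriptions of letters in annotated windows, and an annotated start can lie some bases away from the start that cells use.

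Of the 80 genes, 78 were measured on all 4 arrays, through 180 probes. Rpl3l, a paralog known from heart and skeletal muscle, and Rpl10l, known from testis, were not well above background on any array. Rps15a and Rps27a each had 1 further probe that was well above background on only some arrays. Probes not well above background on all arrays were left out. No spot of these genes was saturated, and none was left out as uneven or as an outlier. The 75th percentile of intensity lay between 377 and 462, and 19548 genes in all were measured.

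Most ribosomal protein genes followed the same order over the 4 arrays. Relative to its own mean over the arrays, a member lay at a median of 0.06 in OSK − 4OHT, 0.15 in OSK + 4OHT, −0.0043 in OSKA − 4OHT and −0.20 in OSKA + 4OHT cells. All genes measured lay at 0.01, 0.02, 0.0036 and −0.03. The AKT-activated cells, OSKA + 4OHT, had the lowest level of the 4 arrays for 72 of 78 members, against 37.6% of all genes. OSK + 4OHT cells had the highest level for 68 members, against 21.5% of all genes, and both held at once for 64 members, against 10.9%. The place of AKT-activated cells as the lowest array held for at least 61 members under every scaling tried, spike-in probes included, against 35.8% to 44.1% of all genes. The place of OSK + 4OHT cells as the highest depended on the scaling. It held for 31 members after quantile normalization, against 19.0% of all genes. When arrays were scaled to spike-in probes it held for 0 members, against 7.98% of all genes.

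**Figure D1:**
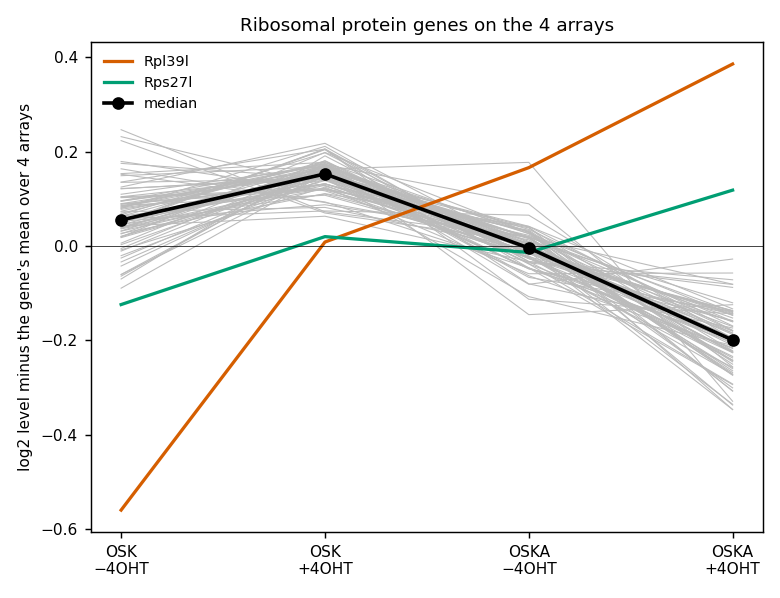
Log2 level of each of the 78 measured ribosomal protein genes minus its mean over the 4 arrays (y axis) on each array (x axis). Grey lines are single genes, the black line is their median, and the coloured lines are Rpl39l and Rps27l, the members that lay above 0 on the OSKA + 4OHT array.

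AKT-MER cells with and without 4OHT were compared first, since this pair asks what activation of AKT did to the mRNAs. Levels of 73 of 78 ribosomal protein genes lay lower with 4OHT, against 56.3% of all genes measured. The median difference over members was −0.20, a change of −12.7%, with an SD over members of 0.11, and over all genes it was −0.04 with an SD of 0.37. Quantile normalization moved the median of members to −0.11. No member passed 2-fold in either direction, a size that 2.49% of all genes reached, and none passed 1.5-fold, which 8.84% did. For 56 members the level was lower by more than the software error of that gene, which held for 27.5% of all genes. The shift was thus small for each gene, and it was shared by genes of both subunits. Less ribosomal protein mRNA per cell and fewer cells rich in it cannot be told apart in RNA from whole cultures.

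The OSK pair, which lacks AKT-MER, asks what 4OHT did on its own. Here 71 of 78 members lay higher with 4OHT, against 49.1% of all genes. Their median difference was 0.09, a change of 6.53% with an SD over members of 0.10, and that of all genes was −0.01. No member passed 2-fold (0.716% of all genes did). A level higher by more than the software error was found for 19 members, which is 24.4% of them, against 20.2% of all genes. This direction depended on the scaling. With the arrays scaled to spike-in probes the median of members was −0.23 and only 1 member lay higher, against 12.1% of all genes. That scaling also moved the median of all genes by −0.32. Relative to the median of all genes, members lay at 0.10, which a constant per array cannot change, but at 0.02 after quantile normalization, 0.01 after normexp with quantile normalization and 0.02 with no filter on dim probes.

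A comparison of OSKA with OSK cells asks what carrying AKT-MER changed, and it shares its arrays with the 4OHT comparisons, so its values are not a further observation of the same shift. OSKA and OSK cells were infected with different mixtures of virus, so differences between infections cannot be told apart from AKT-MER here. Without 4OHT the median difference, OSKA minus OSK, was −0.07 over members and −0.01 over all genes. With spike-in scaling it was −0.53 over members and −0.48 over all genes, and with no filter on dim probes members lay 0.03 above the median of all genes. Of the members, 63 lay lower, against 52.4% of all genes, and none passed 2-fold, against 1.82%. Only 13 members (16.7%) lay lower by more than their software error, against 21.3% of all genes. With 4OHT the median was −0.35, a change of −21.5%, and −0.05 over all genes. Quantile normalization moved the median of members to −0.15. Of the members 76 of 78 lay lower, against 57.2% of all genes, and 73 of them by more than their software error, against 29.6%. No member reached 2-fold in this pair either, against 2.85% of all genes.

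**Figure D2:**
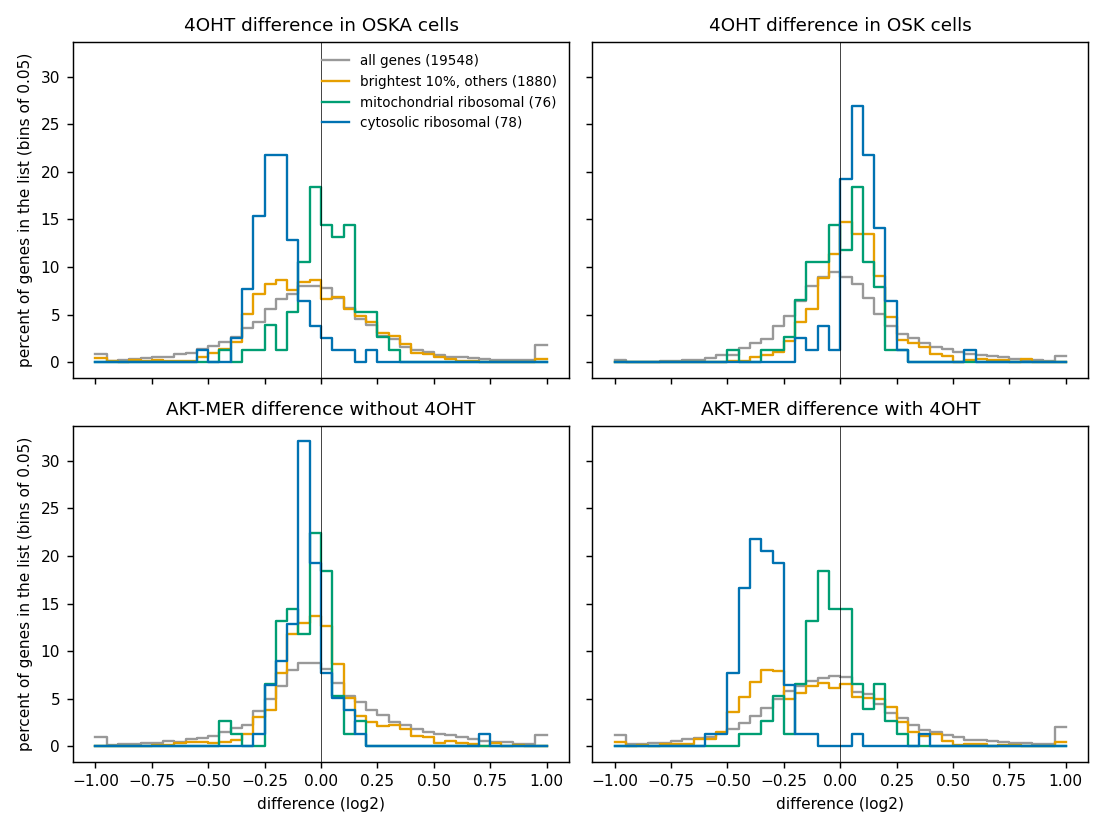
Distribution of log2 differences (x axis, bins of 0.05, differences beyond 1 either way in the end bins) as the percent of genes in each list (y axis), for all genes measured, the brightest 10% of genes without members, mitochondrial ribosomal protein genes and the 78 cytosolic ribosomal protein genes. The cytosolic ribosomal protein genes form a narrow peak below 0 in the OSKA pair (median −0.20) and in the AKT-MER pair with 4OHT (median −0.35), and above 0 in the OSK pair (median 0.09).

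The 4OHT difference in OSKA cells minus that in OSK cells uses each array once. It was below 0 for 78 of 78 members, against 54.5% of all genes, when arrays were scaled to their 75th percentile, for 68 after quantile normalization, and for only 9 with spike-in scaling, which moved the median of all genes from −0.04 to 0.33. The median over members was −0.29 with the 75th percentile and 0.08 with spike-in probes. Measured from the median of all genes it was −0.25, which a constant per array cannot change, and 77 of 78 members lay below that median. After quantile normalization the same quantity was −0.10, with 65 members below. Single members ranged from −0.68 for Rps21 to −0.01 for Rps27l. Across the 78 members, the differences of the OSKA and the OSK pair correlated with r = 0.53 (Pearson) and rho = 0.43 (Spearman), and over all genes rho was −0.05. These are given as descriptions, since genes are not independent replicates and each gene's values share its probes.

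**Figure D3:**
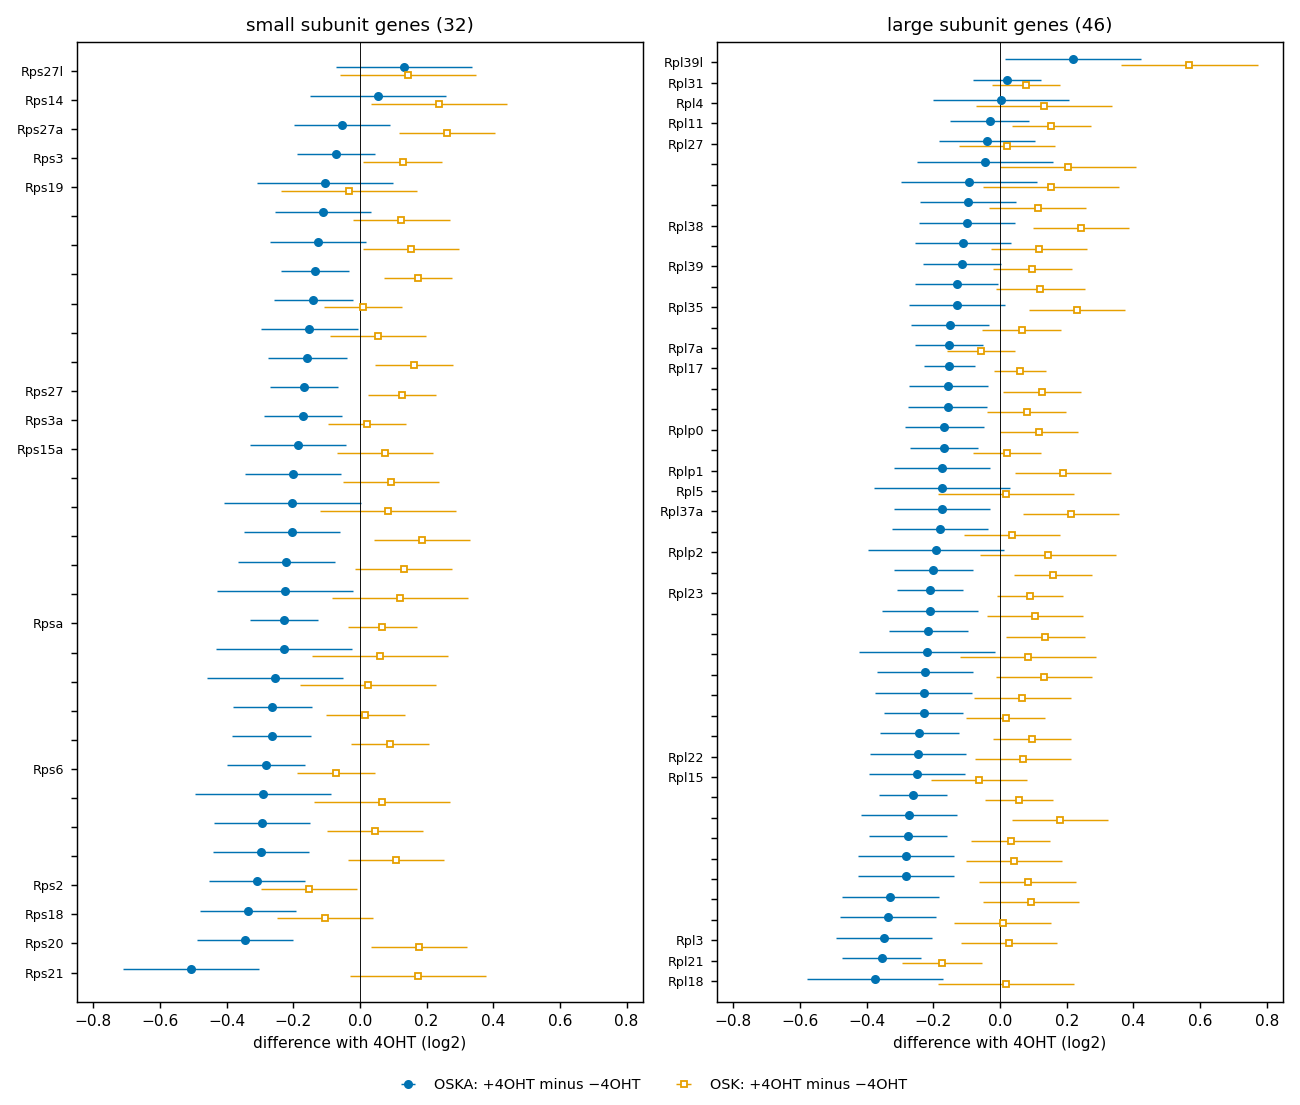
Log2 difference with 4OHT (x axis) of the 32 small subunit and 46 large subunit genes, ordered by the difference in OSKA cells, with the names of genes described in the text. Filled circles are OSKA cells, open squares are OSK cells, and bars are the software error of each difference. For 78 of 78 genes the OSKA circle lies left of the OSK square.

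Genes of the small subunit, which decodes mRNA, and of the large subunit, which forms the peptide bond, had medians close to each other. The 32 small subunit genes had median differences of −0.20 in the OSKA pair, 0.09 in the OSK pair, −0.06 in the AKT-MER comparison without 4OHT and −0.35 in that with it. The 46 large subunit genes had −0.18, 0.09, −0.07 and −0.35 in the same order.

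Rps21, a small protein of the small subunit, had the lowest difference with 4OHT in OSKA cells. Its level was 4.30 in OSK − 4OHT, 4.47 in OSK + 4OHT, 4.49 in OSKA − 4OHT and 3.98 in OSKA + 4OHT cells, so the AKT-activated array stood below the other three. The 4OHT difference was −0.51 in the OSKA and 0.17 in the OSK pair, each with a software error of 0.20. It rests on 1 probe, and unlike most members it lay higher on the OSKA − 4OHT than on the OSK − 4OHT array, by 0.19.

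Rps20 lay at 9.01, 9.18, 9.10 and 8.76 on the arrays in the same order, which is used from here on (the OSK pair first and the array without 4OHT first within a pair). It too was lowest in AKT-activated cells. The 4OHT difference was −0.35 in OSKA and 0.18 in OSK cells, with a software error of 0.14, so that it lay outside the error on both sides of 0.

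Rps6, the subunit protein that S6 kinases phosphorylate downstream of mTORC1, lay at 5.81, 5.74, 5.66 and 5.38. Its mRNA was 1 of 7 members that did not lie higher with 4OHT in OSK cells, with a difference of −0.07, and in OSKA cells the difference was −0.28 (software error 0.12 in both). Rpsa, which also serves as a laminin receptor, lay at 5.20, 5.27, 5.10 and 4.87, with differences of −0.23 in OSKA and 0.07 in OSK cells. Both mRNAs were lowest in AKT-activated cells.

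Rps2, at the channel through which mRNA enters, lay at 7.29, 7.14, 7.08 and 6.77, and Rps18, in the head of the small subunit, at 6.80, 6.69, 6.55 and 6.22. Levels of both stepped down from OSK − 4OHT to OSKA + 4OHT cells, with differences in the OSK pair of −0.15 and −0.10. Rps19, the gene most often mutated in Diamond-Blackfan anaemia, lay at 6.72, 6.68, 6.43 and 6.33, and its difference between OSKA and OSK cells without 4OHT, −0.28 with a software error of 0.20, was the lowest of all members in that pair.

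Rps14, the haploinsufficient gene of the 5q− syndrome, was among the few members that did not lie lower with 4OHT in OSKA cells. It lay at 9.13, 9.37, 9.11 and 9.17, a difference of 0.05 in OSKA and 0.24 in OSK cells with a software error of 0.20. The OSK + 4OHT array held its highest level, as for most members.

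In the large subunit, Rpl18 had the lowest 4OHT difference in OSKA cells. It lay at 7.31, 7.33, 7.19 and 6.81, and its differences were −0.38 in OSKA cells, 0.02 in OSK cells and −0.51 between OSKA and OSK cells with 4OHT, with a software error of 0.20. Rpl3, which reaches the peptidyl transferase centre, lay at 7.77, 7.80, 7.69 and 7.34, with −0.35 in OSKA and 0.03 in OSK cells. AKT-activated cells stood apart from the other arrays for both genes.

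Rpl21 lay at 1.78, 1.61, 1.55 and 1.20, lowest in AKT-activated cells, and it had the lowest 4OHT difference in OSK cells, −0.17. Rpl22, best known for its part in T cell development, lay at 5.66, 5.73, 5.48 and 5.23, a difference of −0.50 between OSKA and OSK cells with 4OHT. Rpl15 lay at 5.29, 5.23, 5.08 and 4.84, so that it too was lower with 4OHT in both pairs, by values of −0.25 in OSKA and −0.06 in OSK cells.

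The P stalk, which recruits and activates the GTPases of translation, consists of the proteins of Rplp0, Rplp1 and Rplp2. The mRNA of Rplp0 lay at 8.38, 8.49, 8.28 and 8.11. That of Rplp1 lay at 8.52, 8.71, 8.58 and 8.41, and that of Rplp2 at 8.64, 8.78, 8.61 and 8.42. All 3 were highest in OSK + 4OHT and lowest in AKT-activated cells, with 4OHT differences of −0.17, −0.17 and −0.19 in OSKA and 0.12, 0.19 and 0.15 in OSK cells.

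Rpl5 and Rpl11, which with the 5S rRNA form the particle that binds and inhibits Mdm2, both were lowest in AKT-activated cells. Rpl5 lay at 6.01, 6.03, 5.88 and 5.71. Rpl11 lay at 7.77, 7.92, 7.60 and 7.57, so its difference with 4OHT in OSKA cells was −0.03 and within its software error of 0.12, while its difference between OSKA and OSK cells with 4OHT was −0.35.

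The 9 large subunit genes listed for the polypeptide exit tunnel had medians of −0.15 in the OSKA and 0.08 in the OSK pair, and 8 of 9 lay lower in the first and 9 of 9 higher in the second. Within it Rpl35 lay at 8.79, 9.02, 8.86 and 8.73, and Rpl38, whose loss in mice disturbs the translation of Hox mRNAs, at 8.23, 8.47, 8.33 and 8.23. These were among the members with the highest 4OHT difference in OSK cells (0.23 and 0.24), and their levels in AKT-activated cells were close to those of OSK − 4OHT cells. Rpl37a, a zinc-binding protein of the large subunit, lay at 9.0003, 9.21, 9.10 and 8.93, with differences of −0.17 in OSKA and 0.21 in OSK cells.

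Rpl4, whose protein also lines the exit tunnel but which is not among those 9, lay at 6.41, 6.54, 6.35 and 6.36 and had a 4OHT difference of 0.0015 in OSKA cells. Rpl27 lay at 6.83, 6.85, 6.75 and 6.71, and its difference of −0.13 between OSKA and OSK cells with 4OHT was the smallest among the members that lay lower. Both stayed within their software errors of 0.20 and 0.14 in the OSKA pair.

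The mRNAs of Rps27a, made as a fusion with ubiquitin, and Fau lay lower with 4OHT in OSKA and higher in OSK cells. Rps27a lay at 7.86, 8.12, 7.90 and 7.84, with the highest 4OHT difference of the canonical members in OSK cells, 0.26. Fau lay at 8.74, 8.96, 8.81 and 8.63. The differences in OSKA cells were −0.05 and −0.18. Of the 16 genes known from Diamond-Blackfan anaemia, 15 lay lower with 4OHT in OSKA cells (median −0.15) and 14 higher in OSK cells (median 0.07), near the values of all members.

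Only Rpl39l and Rps27l lay above 0 in the comparison of OSKA with OSK cells in the presence of 4OHT. Rpl39l is a paralog of Rpl39 known from the testis and from some tumours and stem cells. Its level was −0.53, 0.04, 0.20 and 0.42, lowest in OSK − 4OHT and highest in AKT-activated cells, whereas most members were lowest there. The 4OHT difference was 0.22 in the OSKA and 0.57 in the OSK pair. Between OSKA and OSK cells it was 0.73 without 4OHT and 0.38 with it, against a software error of 0.20 to 0.21. At 1.65-fold, the difference without 4OHT was the only one of any member past 1.5-fold, a size reached by 9.1% of all genes in that pair. Rpl39 itself lay at 4.73, 4.83, 4.68 and 4.56.

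Rps27l, a paralog of Rps27 that p53 is known to induce, lay at 6.13, 6.28, 6.24 and 6.37. Its differences of 0.13, 0.14, 0.11 and 0.10 in the 4 comparisons stayed within the software error of 0.20. Rps27 lay at 7.86, 7.99, 7.81 and 7.64. Both paralogs have 1 probe each on the array. Without them, 76 of 76 members lay lower in OSKA than in OSK cells with 4OHT.

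Other paralogs outside the naming rule differed in the sign of their 4OHT difference in OSKA cells, but each difference stayed within its software error of 0.20. Rpl22l1 lay at 6.81, 6.88, 6.69 and 6.55, lowest in AKT-activated cells like the canonical genes. Rpl36al lay at 5.38, 5.58, 5.31 and 5.45, and Rpl7l1 at −0.17, −0.28, −0.28 and −0.18, and these had 4OHT differences of 0.14 and 0.10 in OSKA cells.

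Genes whose mRNAs carry a TOP motif but encode no ribosomal protein, such as elongation factors and poly(A)-binding protein, were looked at next. In OSKA cells 18 of 19 lay lower with 4OHT, with a median of −0.16, and between OSKA and OSK cells with 4OHT 18 of 19 did, with a median of −0.29. Without 4OHT 17 of 19 already lay lower in OSKA than in OSK cells, with a median of −0.12. Pabpc1, the poly(A)-binding protein, lay at 6.62, 6.62, 6.60 and 6.17, and Eif4b at 1.53, 1.59, 1.44 and 1.07. In the OSK pair their median was −0.07, with 8 of 19 higher, where the ribosomal protein genes had 71 of 78 higher. At the upper end of the list in the OSKA pair stood Naca, a chaperone subunit at the exit tunnel, at 6.38, 6.43, 6.05 and 6.11, and Eef1g at 5.64, 5.54, 5.60 and 5.55.

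The machinery that acts on these mRNAs showed no such order. Of 20 measured genes of mTORC1 and S6 kinase signalling, 11 lay higher and 9 lower with 4OHT in OSKA cells, and their median was 0.01. Ddit4, an inhibitor of mTORC1, lay at 4.04, 3.93, 4.53 and 5.41, a 1.83-fold higher level with 4OHT in OSKA cells and a 2.79-fold higher level in OSKA than in OSK cells with 4OHT. Sesn3, which also restrains mTORC1, lay at 0.59, 0.88, 1.21 and 1.72. Pdcd4, a translation inhibitor that S6 kinase marks for degradation, lay at 3.42, 3.13, 3.36 and 2.79, and Deptor at 0.08, −0.19, 0.09 and −0.30. Larp1 differed by 0.01 and Rps6kb1, the main S6 kinase, by −0.01 in OSKA cells.

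Translation initiation factors had a median of 0.04 with 4OHT in OSKA cells, 13 of 21 higher, and the largest values were those of Eif5b, at −3.64, −4.01, −4.09 and −3.39, and Eif2s2, at 3.22, 3.25, 3.17 and 3.48. At the lower end, Eif1a lay at 3.84, 3.74, 3.84 and 3.56 and Eif4g3 at −1.73, −1.56, −1.29 and −1.49. The 76 genes of the mitochondrial ribosome, which translates the mRNAs of the mitochondrial genome, had medians of 0.02 and 0.01 with 4OHT in OSKA and OSK cells, and −0.05 and −0.05 in the AKT-MER comparisons without and with it. Their differences in OSKA cells ran from −0.45 for Mrps27 and −0.34 for Mrpl9 to 0.29 for Mrpl18 and 0.31 for Mrpl49. In the OSKA pair 33 of these 76 lay lower, against 73 of 78 genes of the cytosolic ribosome. In the AKT-MER comparison without 4OHT 55 of 76 lay lower, against 63 of 78, so the counts of both ribosomes were closer there.

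**Figure D4:**
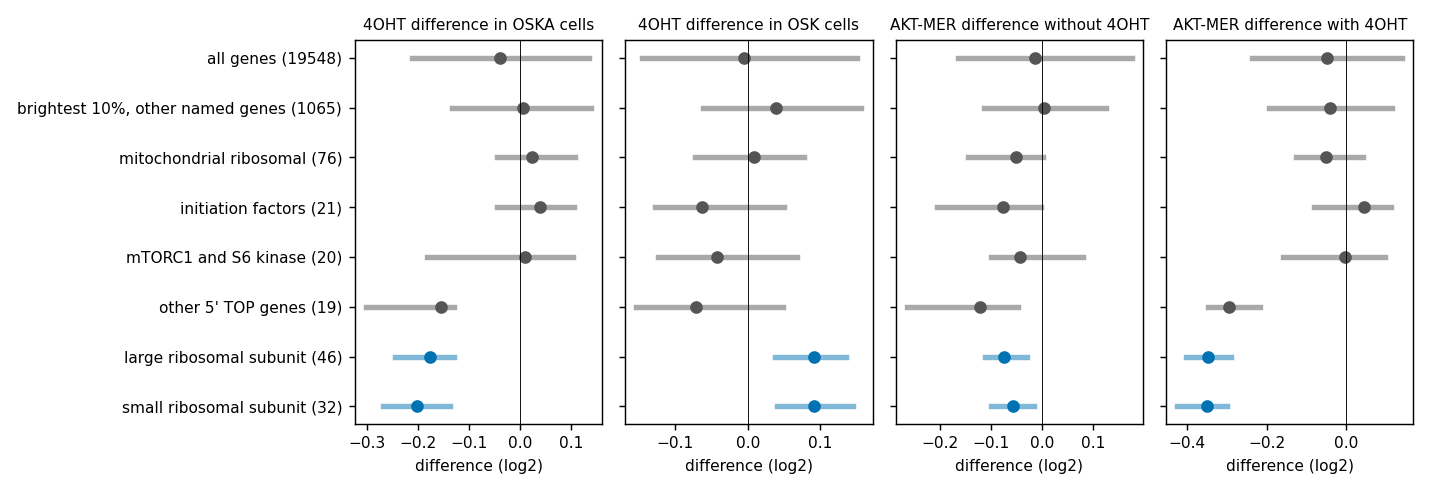
Median (points) and quartiles (bars) of log2 differences over the genes of each list (y axis, number of measured genes in brackets) in the 4 comparisons (panels, each with its own x axis). Both ribosomal subunits and the other TOP genes lie below 0 in the OSKA pair and in the AKT-MER pairs without and with 4OHT (other TOP genes at −0.12 and −0.29). Mitochondrial ribosomal protein genes lie at 0.02, −0.05 and −0.05, which in the AKT-MER pair without 4OHT is close to the small (−0.06) and the large subunit (−0.07).

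Most members are bright, so the brightest 10% of genes was set beside them. Its 1880 genes without members had medians of −0.06 in the OSKA pair, 0.05 in the OSK pair, and −0.03 and −0.12 in the AKT-MER comparisons without and with 4OHT. The signs were those of the members, and the sizes lay nearer to 0. Without genes that carry only a provisional name, 1065 genes remained, and their medians were 0.0042, 0.04, 0.0035 and −0.04. What share of the probes with provisional names reads ribosomal protein sequence was not tested.

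The probes of a gene mostly moved alike. Of the 61 members with 2 or more probes, all probes lay lower with 4OHT in OSKA cells for 52 and between OSKA and OSK cells with 4OHT for 60, and all lay higher with 4OHT in OSK cells for 36. A probe of Rpl23 that was spotted 10 times on each array gave means of 3.89, 3.78, 3.66 and 3.24 with an SD of 0.07 to 0.08 over its spots, and its 4OHT difference of −0.42 in OSKA cells compares with −0.10 and −0.11 for the other probes of that gene. Ribosomal protein genes have many processed pseudogenes, and probes with near-identical copies elsewhere can read them too. The files place 25 member probes on another chromosome than the gene or on none, and 25 of these 25 lay lower with 4OHT in OSKA cells, with a median of −0.18. In the AKT-MER comparison without 4OHT 14 of the 25 lay lower (median −0.0074), against 129 of 155 probes on the gene's chromosome (median −0.07). An Rpl31 probe at another site of the gene's own chromosome, described below, is not among the 25.

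Probes that hold a polyadenylation signal gave smaller differences in OSKA and larger ones in OSK cells than those without it. The polyadenylation signal AATAAA or ATTAAA is part of 68 of the 180 member probes (37.8%), against 17.0% of all measured probes. Those that hold it had medians of −0.15 with 4OHT in OSKA and 0.13 in OSK cells, and those without it −0.23 and 0.06. Between OSKA and OSK cells with 4OHT the medians were −0.29 and −0.37. The sign was the same for both kinds of probe in each of these pairs. Among other bright probes the medians in OSKA cells were 0.0015 with and −0.06 without the signal.

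Rpl31, Rpl17, Rpl22 and Rpl7a were among the members whose own probes differed most. Rpl22 had probe differences from −0.49 to −0.01 in the OSKA pair. For Rpl31, Rpl17 and Rpl7a, and for Rpl11 and Rps3, 1 probe stood against the others by lying more than 0.1 higher with 4OHT in OSKA cells and more than 0.3 lower in the AKT-MER comparison without 4OHT, limits that were chosen after the values were seen. That was 2.78% of the 180 member probes, and the same held for 53 of 2528 other bright probes (2.10%), a share near it. The last 30 bases of 4 of these 5 probes, which have 60 bases, are printed as the files give them, with the polyadenylation signal in capitals, which the Rpl7a probe lacks in this stretch, and coordinates in NCBI37 (mm9).
Rpl31 probe (chr1:66995098-66995157): gtcaAATAAAgttgcagaactgccaaaaaa
Rps3 probe (chr7:106627408-106627786): gatgctaccttgtaaagacatttAATAAAa
Rpl11 probe (chr4:135605879-135606201): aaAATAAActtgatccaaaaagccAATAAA
Rpl7a probe (chr2:26768730-26768789): gctaaagaactcaccactaacttgggttaa
The Rpl31 probe read 7.69, 7.89, 7.22 and 7.69, and the files place it on the gene's chromosome but at another site than the other Rpl31 probes, which lie between 39425070 and 39428567. The Rps3 probe read 6.94, 7.03, 6.55 and 6.74. The Rpl11 probe read 7.41, 7.56, 7.08 and 7.21, and the Rpl7a probe 6.99, 6.97, 6.57 and 6.71. The limits that chose these probes place the OSKA − 4OHT array below the OSK − 4OHT and OSKA + 4OHT arrays. Over its 4 probes Rpl31 lay at 6.10, 6.18, 5.86 and 5.88, with a mean difference of 0.02 in the OSKA pair, where its other 3 probes gave −0.20, −0.06 and −0.13.

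Members with a run of at least 8 pyrimidines anywhere in the start window, before the annotated start included, had a median 4OHT difference of −0.19 in OSKA cells (24 genes), and those with a shorter run one of −0.20 (34 genes). In OSK cells the medians were 0.08 and 0.10. The medians of both kinds of gene lay close together in either pair.

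Markers of cell types were read on the same arrays. All 10 fibroblast markers were measured, with a summed level of 1544, 1597, 1659 and 1716 times the 75th percentile on the 4 arrays, highest in AKT-activated cells. Between OSKA and OSK cells with 4OHT, 7 of 10 lay higher (median 0.39, SD over markers 0.53), while S100a4 (−0.78), Pdgfrb (−0.62) and Vim (−0.40) lay lower. With 4OHT 7 lay higher and 3 lower in OSKA cells (median 0.08, SD over markers 0.38), and 5 higher and 5 lower in OSK cells (median 0.0023). Of 11 pluripotency markers 7 were measured, with sums between 6.25 and 6.79, but single markers moved in opposite directions. With 4OHT 4 lay higher and 3 lower in OSKA cells (median 0.08, SD over markers 0.45), and 2 higher and 5 lower in OSK cells (median −0.15). Pou5f1 differed by 0.43 in OSKA and −0.58 in OSK cells, Tdgf1 by −0.73 and 0.46, and Sox2, Zfp42 and Esrrb were not well above background on any array. Pou5f1 is the gene of Oct4, which every culture received by retrovirus, and whether its probe also reads the vector was not tested. All 6 macrophage markers were measured, and their sum was 46.9, 58.5, 59.8 and 53.6 on the 4 arrays. With 4OHT, 6 of 6 lay lower in OSKA (median −0.17) and 6 of 6 higher in OSK cells (median 0.38), the directions of the ribosomal protein genes, while 6 of 6 lay higher on the OSKA − 4OHT than on the OSK − 4OHT array (median 0.40), where most ribosomal protein genes lay lower. With 4OHT, 6 of 6 lay lower in OSKA than in OSK cells (median −0.17), as did most ribosomal protein genes. Endothelial markers (3 of 5 measured, Cdh5 and Tie1 on no array) summed to 2.80, 3.15, 2.77 and 2.57, and erythroid markers (2 of 6 measured, with Klf1 and Alas2 among those on no array) to 1.23, 0.824, 0.827 and 2.04. Of the erythroid markers measured, Hbb-y carried the sum and differed by 1.45 with 4OHT in OSKA cells, and Hbb-bh1 differed by −0.35. The part of these cells in the levels of ribosomal protein genes was not tested.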

How the data were processed

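Total RNA was labelled with Cy3 from 100 ng and hybridised to single-colour arrays, 1 for each of 4 groups. Scanner files deposited by the authors hold processed signal intensity from Agilent Feature Extraction 10.7.3.1 (background-subtracted and spatially detrended), and the deposited series matrix holds the same intensities, rounded. The description of the OSKA + 4OHT sample calls AKT-MER not activated, against its title and the design text, and the title was followed.

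Intensities were divided by the 75th percentile of each array over spots neither control nor marked as uneven or outliers (104 to 155 such spots per array), and log2 was taken. Repeated spots and then the probes of a gene that were well above background on all 4 arrays were averaged. The median software error of a member's difference was 0.14, and 271 probes spotted 10 times gave an SD of 0.09 for a difference. The number of arrays limits the precision. Called means at least 2-fold. Genes were named by their rank in a comparison (5 highest, 5 lowest), membership of short lists or spread among probes. Members and lists were chosen with earlier results of these data known. The steps were tested on simulated data. Python 3.11.15, numpy 2.4.6, pandas 2.3.3, R 4.3.3 and limma 3.58.1 (normexp, offset 50) were used. Start windows came from RefSeq promoters (GRCm38.p6), and probe positions from the files (NCBI37). Alternatives changed the scaling, background, filter, probe choice, marked spots, values and threshold, and 2 were added after seeing the data. Some genes that the naming rule reached are not reported here.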

Additional observations from a re-analysis of the deposited data

Results flagged for a closer look

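The ribosomal protein genes lay on opposite sides of 0 with 4OHT in cells with and without AKT-MER. The median difference over 78 members was −0.196 in OSKA and 0.0912 in OSK cells. With 1 array per group this contrast was not tested, and the OSK value turned to −0.232 when arrays were scaled to spike-in probes. A 4OHT difference on opposite sides of 0 in the 2 pairs, beyond the software error in both, was found for 11 of 78 members (14.1%), against 11.3% of all genes, a share near that of all genes. Rpl37a (−0.175 in OSKA and 0.213 in OSK cells), Rplp1 (−0.174 and 0.188), Rps20 (−0.345 and 0.177) and Rps27 (−0.168 and 0.126) were among these 11, and for these genes too the difference between OSKA and OSK cells was not tested.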

How the results depend on the processing

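No paired analysis was possible because each group had 1 array and the labels give no replicate numbers. Over all alternatives the median difference of ribosomal protein genes stayed below 0 with 4OHT in OSKA cells (−0.228 to −0.105) and between OSKA and OSK cells without (−0.534 to −0.038) and with 4OHT (−0.444 to −0.151). In OSK cells it ran from −0.232 to 0.120. Quantile normalization gave −0.105 in OSKA cells and −0.151 between OSKA and OSK cells with 4OHT, and 13, 41 and 5 members higher in the OSKA, OSK and last pair. Of all genes 46.3%, 46.3% and 44.8% lay higher there. Normexp with quantile normalization gave −0.109 and −0.151, −0.000973 in OSK cells, and 9, 38 and 6 members higher, against 46.2%, 46.6% and 45.1% of all genes. Quantile normalization gives every array the same distribution of intensities. Spike-in scaling gave −0.232 in OSK cells, −0.534 without and −0.444 with 4OHT between OSKA and OSK cells, and 8, 1 and 1 members higher in the OSKA pair, the OSK pair and the pair without 4OHT. It moved the median of all genes by 0.05, −0.32, −0.46 and −0.09, and as a constant per array it cannot change members minus all genes (−0.16, 0.10, −0.05 and −0.30 in the OSKA pair, the OSK pair and the AKT-MER pairs without and with 4OHT). Quantile normalization gave −0.08, 0.02, −0.02 and −0.12 for that quantity, and no filter on dim probes −0.27, 0.02, 0.03 and −0.23. Median scaling gave 9 members higher in the pair without 4OHT, against 40.4% of all genes. With no filter on dim probes 1 member each passed 2-fold in the OSKA pair and in both AKT-MER pairs, and at 1.5-fold 1 member passed without 4OHT. Probes without a polyadenylation signal, an alternative chosen after seeing the data, gave 1, 9 and 1 members higher in the OSKA pair and the pairs without and with 4OHT, of 65 measured. Of all genes 42.7%, 47.4% and 42.3% lay higher there. The probes on the gene's chromosome, also added, changed no count of members by over 1.5 times. The cause of these changes was not tested. Among 124 differences of named members, none of them past 2-fold, the sign changed for 33 under spike-in scaling, 14 and 15 under the quantile normalizations and at most 7 under any other alternative.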
